A study of Homo sapiens with 8 samples.

Results

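RREB1 and JARID2 are genes on the short arm of human chromosome 6 that each carried more than 60 regions of differential H3K79me3 in a comparison of shLAMP5-AS1 with shNC cells. A region was taken as a member when RREB1 or JARID2 stood in the authors' promoter, intron, exon or UTR annotation of it. This gave 145 member regions of 22412 in the 2 deposited tables, 129 of them H3K79me3 and 16 H3K79me2. The genes were selected on a measured value, their number of H3K79me3 regions, so that number, and every other H3K79me3 value of the same contrast, is given as a description and without a test.

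The cell type field gives MOLM-13, an acute myeloid leukemia line with an MLL fusion gene, while the growth field describes a culture derived from a xenograft. The groups were shLAMP5-AS1, a hairpin named for the antisense long noncoding RNA at LAMP5, and shNC, the control hairpin. The titles name 1 ChIP and 1 input library for each of the 2 marks and each hairpin, 8 libraries in all. The transfection field of the shNC libraries reads control siRNA, and other label fields name unrelated knockdowns, so groups follow the titles, and the line is named as under cell type. With 1 library a group no test of the hairpins can be made and no difference has a replicate check. Depth is unknown, since the tables hold no read totals, and they list differential regions only, so the identity of the cells cannot be checked against marker genes here.

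H3K79 methylation is written by DOT1L over the bodies of transcribed genes, and MLL fusion proteins recruit DOT1L to their target genes. RREB1 is a zinc finger transcription factor that binds RAS-responsive elements, acts downstream of RAS and MAP kinase signalling and works with SMAD proteins in mouse cells. JARID2 is a Jumonji family protein without demethylase activity that joins Polycomb repressive complex 2 (PRC2), the complex that methylates H3K27, and helps to bring it to chromatin.

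Each gene had 1 region at an annotated promoter, H3K79me2 for RREB1 and H3K79me3 for JARID2, so short stretches of both promoters are shown, chosen for known promoter motifs. They come from RefSeq on GRCh38.p14, 5′ to 3′ on the plus strand, with the motif in capitals, and lie in windows that reach from 250 bases before to 50 after a listed start. The first is the E-box CACGTG of RREB1 (chr6:7107733-7107762), 216 bases before the start. The second is TATAAA before the upstream start of JARID2 (chr6:15245933-15245962), 124 bases before it. The other two hold TGACGTCA, the cAMP response element, 111 and 62 bases before the downstream start of JARID2 (chr6:15248733-15248762 and chr6:15248782-15248811).
RREB1 E-box: tcgcaggagcaaCACGTGatgtgtctactt
JARID2 upstream start, TATAAA: agccctaacttgTATAAAagcagagtccat
JARID2 downstream start, first TGACGTCA: tgttgtcattgTGACGTCAcaaagggacgg
JARID2 downstream start, second TGACGTCA: ctcctcctccgTGACGTCAaaagtcgggcg

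Searched on both strands, CACGTG occurred in 7.26% of the 35116 RefSeq promoter windows, TATAAA in 11.5% and TGACGTCA in 1.85%. The GC box GGGCGG, found in 45.0% of windows, occurred 1 time in the RREB1 window, 1 time at the upstream and 6 times at the downstream JARID2 start. The window of JARID2-AS1, an antisense RNA, runs on the minus strand over most of the same bases and holds the same 2 TGACGTCA matches. JARID2-AS1 was also named in the 2 kb downstream column of the JARID2 promoter region, the only other gene that shared an annotation with a member. The window at the downstream JARID2 start held 40 CG pairs and was 76.3% G or C, against 22 pairs and 62.3% for RREB1 and 24 pairs and 64.0% at the upstream JARID2 start. These windows are on another build than the deposited regions, so no distance between them is given, and a match is not evidence of binding.

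For H3K79me3, RREB1 had 68 regions and JARID2 had 61, and all of them had a negative score. The exact 95% intervals of the negative share, which cover counting error only, were 94.7 to 100% for RREB1 and 94.1 to 100% for JARID2. Over the whole table, 13329 of 13666 regions (97.5%) were negative, so the shared sign says nothing particular about these genes. The files and labels do not say which hairpin a negative score favours, so signs stay as deposited and are not turned into gain or loss.

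Only 10 of 4045 genes with an H3K79me3 region had over 60, which is 0.247%, and the median gene had 2. RREB1 was the sixth by number and JARID2 the tenth. Just inside the limit lay JARID2, then CDK6 (the cell cycle kinase) and FNDC3B with 62 regions each, JMJD1C with 63 and RREB1. Just outside it lay MEIS1, the homeobox cofactor of HOX proteins, with 55 regions, PARP8 with 54, CCDC26 and ELF1 with 53 each, and CNOT6L with 50. RREB1 held 6.78% and JARID2 6.08% of the 1003 H3K79me3 regions on chromosome 6.

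All 129 H3K79me3 regions were annotated to an intron, and 1 of them, in JARID2, also to the promoter. No region of either mark in either gene lay in an exon or UTR, where 4.73% of all H3K79me3 regions and 3.93% of all H3K79me2 regions lay. CpG island shores, the flanks of CpG-rich stretches, took in 4 of 68 RREB1 regions and 1 of 61 JARID2 regions of H3K79me3, against 18.8% in the whole table. For H3K79me2 they took in 3 of 6 RREB1 regions and 0 of 10 JARID2 regions, against 1052 of the 8746 regions in that table.

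**Figure D1:**
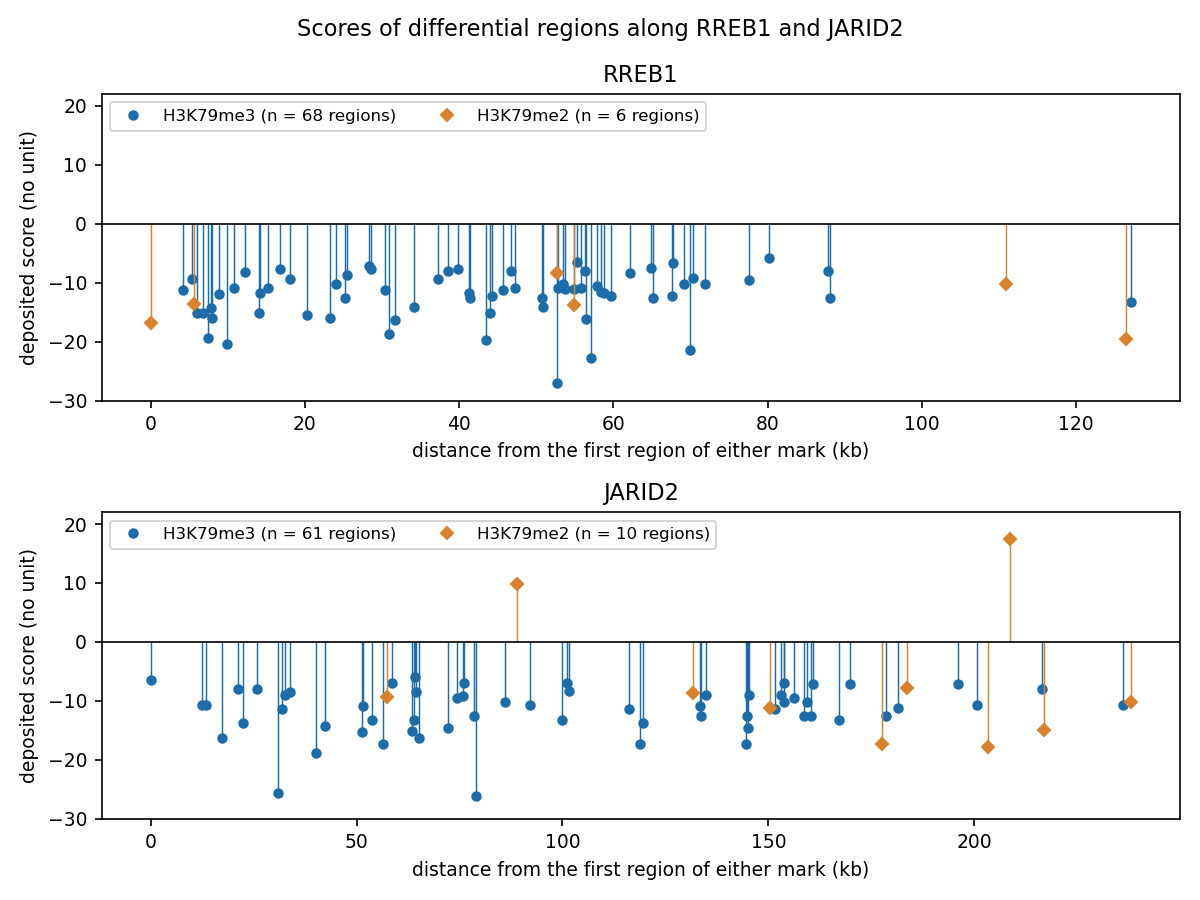
Deposited score (vertical axis, no unit) of every differential region against its distance in kb from the first region of either mark, for RREB1 (top) and JARID2 (bottom), with H3K79me3 as circles and H3K79me2 as diamonds. All H3K79me3 points lie below 0, and the only 2 points above 0 are H3K79me2 regions of JARID2.

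In RREB1 the H3K79me3 regions were packed toward the 5′ end of the stretch they spanned, both genes being on the plus strand. They ran from 7109967 to 7232984 on chromosome 6, but 67 of the 68 lay within the first 84.0 kb, up to 7193945. A gap of 39.0 kb without an H3K79me3 region followed, and then 1 more region at 7232908 to 7232984. Within the dense stretch there were 7.98 regions per 10 kb and they covered 9.14% of it. Over all 68 regions the density was 5.53 per 10 kb, the median gap between neighbours was 758 bp, and 58.2% of the gaps were under 1 kb.

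JARID2 was covered more thinly and more evenly. Its regions ran from 15247301 to 15483493, a stretch of 236 kb, at 2.58 per 10 kb, with a median gap of 2170.5 bp and a longest gap of 19.5 kb. Of its 60 gaps, 20 were under 1 kb. The densest 10 kb window of JARID2, 150 to 160 kb from its first region, held 7 regions, against 16 in the densest of RREB1, 50 to 60 kb from its first region of either mark. Among the 10 genes with over 60 regions, RREB1 was the third densest and JARID2 the ninth.

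Regions were short in both genes, with a median width of 100 bp in RREB1 (63 to 294 bp) and 89 bp in JARID2 (63 to 447 bp), against 85 bp over the table. Their sum was 7.75 kb in RREB1 and 6.34 kb in JARID2.

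The H3K79me3 score of RREB1 that was largest in size, -27.02 in the authors' deposited table, belonged to an intron region at 7158507 to 7158571. It was followed in the authors' deposited table by -22.83 at 7162896 to 7163019 and -21.47 at 7175736 to 7176024. The smallest in size was -5.86. JARID2 reached -26.11 in the authors' deposited table at 15326250 to 15326697, the widest region of either gene. Next in the authors' deposited table came -25.61 at 15278113 to 15278213 and -18.80 at 15287408 to 15287490. The single promoter region of JARID2, at 15247301 to 15247378, which was also annotated to an intron, had -6.41 in the authors' deposited table.

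The median score size was 11.2 in RREB1 (quartiles 9.43 and 14.2) and 10.9 in JARID2 (9.08 and 13.3), against 10.2 in the whole table (8.32 and 12.5). A size of at least 10 was reached by 48 of 68 RREB1 regions (70.6%) and 39 of 61 JARID2 regions (63.9%), against 54.2% of the table. These are values of the contrast that chose the genes, and both medians lay between the quartiles of the table.

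**Figure D2:**
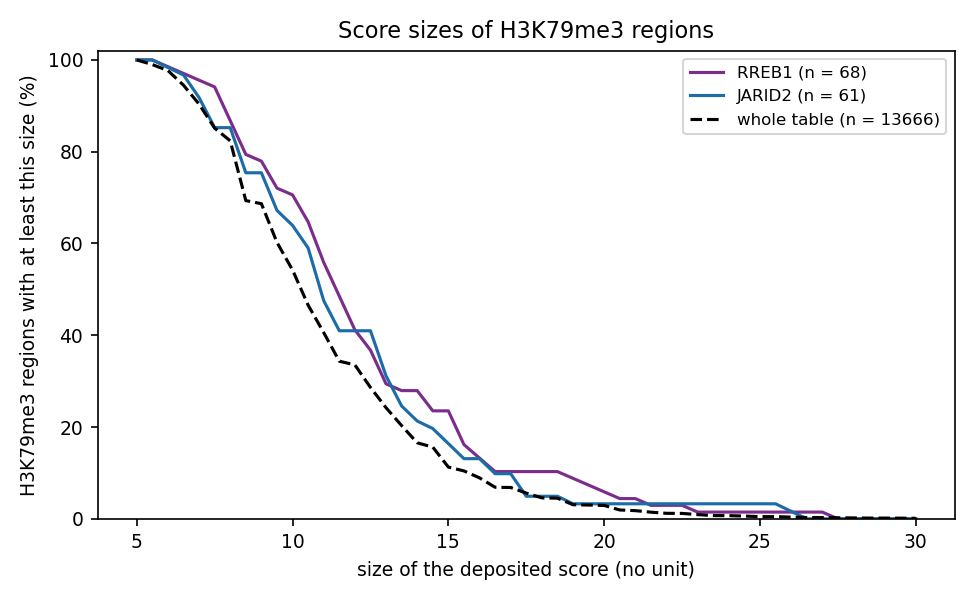
Percent of H3K79me3 regions (vertical axis) whose score reaches at least the size on the horizontal axis (no unit), for RREB1, JARID2 and the whole table. At a size of 10 the curves stand at 70.6% for RREB1, 63.9% for JARID2 and 54.2% for the whole table.

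The genes also differed in a reading of the score. The deposited scores recur at fixed values, and 98.2% of negative H3K79me3 scores lay within 0.007 of -log10 of a Poisson upper-tail probability. Such a probability compares a whole count with a comparison value, here a fitted background of 0.711 or a whole number up to 10. The background was fitted to these same scores, and no match rate of arbitrary scores is given. Fewer of the other scores matched, each set with its own fitted background. These were 78.3% of positive H3K79me3 scores, and 95.4% of negative and 94.6% of positive H3K79me2 scores. The submitters do not state this scale, so what follows is a reading of the values and not a count of reads in a library. A region was put in the higher class when every fitting solution had a comparison value of 2 or more, and in the lower class when every one was 1 or under.

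On this reading RREB1 had 49 of 68 H3K79me3 regions in the higher class, 72.1% (exact 95% interval 59.9 to 82.3%, counting error only), and 14 in the lower class. JARID2 had 14 of 61 in the higher class, 23.0% (13.2 to 35.5%), and 44 in the lower. The whole table stood at 24.5%. JARID2 therefore lay near the table, while RREB1 had the highest share of the 10 genes with over 60 regions. SENP6, a SUMO protease gene, came next with 65.8%, then DACH1 with 47.6% and CDK6 with 35.5%, and FNDC3B had the lowest share, 9.68%. High shares also occurred just outside the limit of 60 regions, where CCDC26 had 60.4% and ELF1 had 58.5%. Lower there were PARP8 with 38.9% and MEIS1 with 18.2%, and CNOT6L lay between PARP8 and MEIS1. The regions of 1 gene are not replicates, and none of these differences was tested.

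Where a single solution existed, the median count was 22 in RREB1 (43 regions) and 14 in JARID2 (52 regions), against 13 in the table. The ratio of that count to its comparison value had a median of 8.67 in RREB1, 14.5 in JARID2 and 14.0 in the table. These medians leave out 25 RREB1 and 9 JARID2 regions, come from the contrast that chose the genes and were not tested. The largest RREB1 score of the higher class, -20.38 in the authors' deposited table, lay at 7115747 to 7116023 and read as 31 against 3, a ratio of 10.3 (exact 95% interval 3.22 to 52.8, counting error only). The RREB1 region with -27.02 in the authors' deposited table read as 26 against 1, with an interval from 4.27 to 1066. For JARID2 the region with -25.61 in the authors' deposited table read as 25 against 1, from 4.09 to 1026. Intervals this wide leave the ratio of any single region imprecise. They also take the comparison value as a second observed count, which the reading does not establish. The regions were picked for their large scores.

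**Figure D3:**
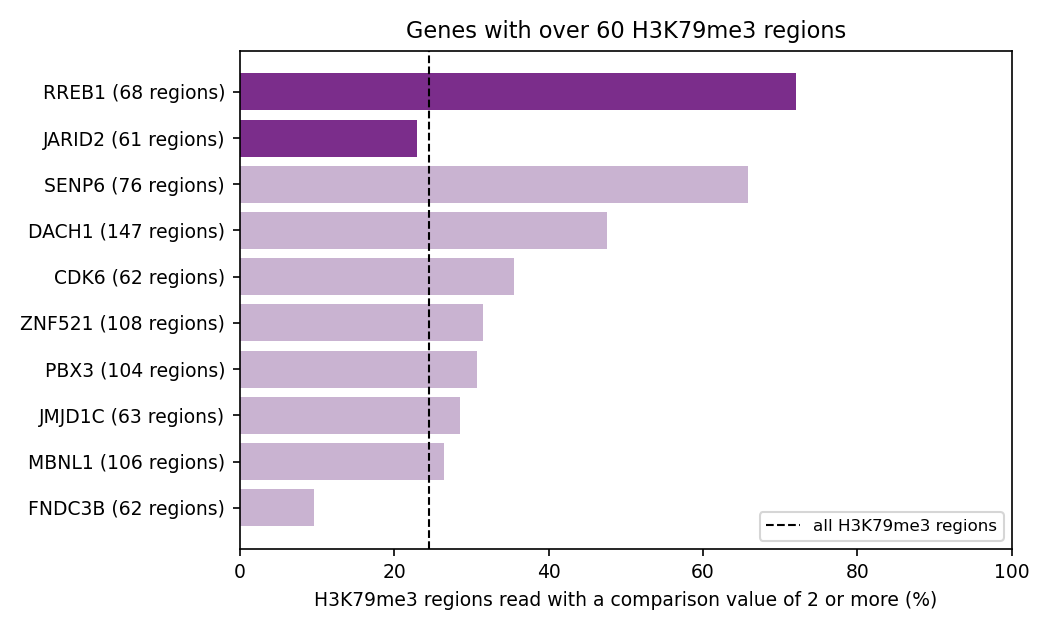
Percent of H3K79me3 regions in the higher class of the score reading (horizontal axis) for the 10 genes with over 60 regions, RREB1 and JARID2 at the top and the others in falling order, with the whole table as a dashed line. RREB1 stands at 72.1% and JARID2 at 23.0%, against 24.5% for the table.

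The higher class was more frequent among the first regions of each gene than among the last, without falling evenly along the gene. In RREB1 the first 34 regions, up to 44.0 kb from the first region of either mark, held 28 of the higher class and 1 of the lower. The other 34 held 21 and 13. The median count of regions with a single solution was 26 in the first set and 18 in the second. In JARID2 the first 30 regions, up to 86.0 kb, held 11 of the higher class and 17 of the lower, and the last 31 held 3 and 27. The median count was 16 in the first set and 13 in the second. By 10 kb window, the most regions of the higher class in RREB1, 12 of 16, lay 50 to 60 kb from the first region, and the windows before it held 5 to 7. In JARID2 the first 3 windows held 1, 0 and 0 of the higher class, and the most, 3 of 5, lay 50 to 60 kb from the first region. These patterns were not tested. Promoter regions of the whole table were in the higher class in 29.3% of cases, close to the 24.5% of all regions.

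**Figure D4:**
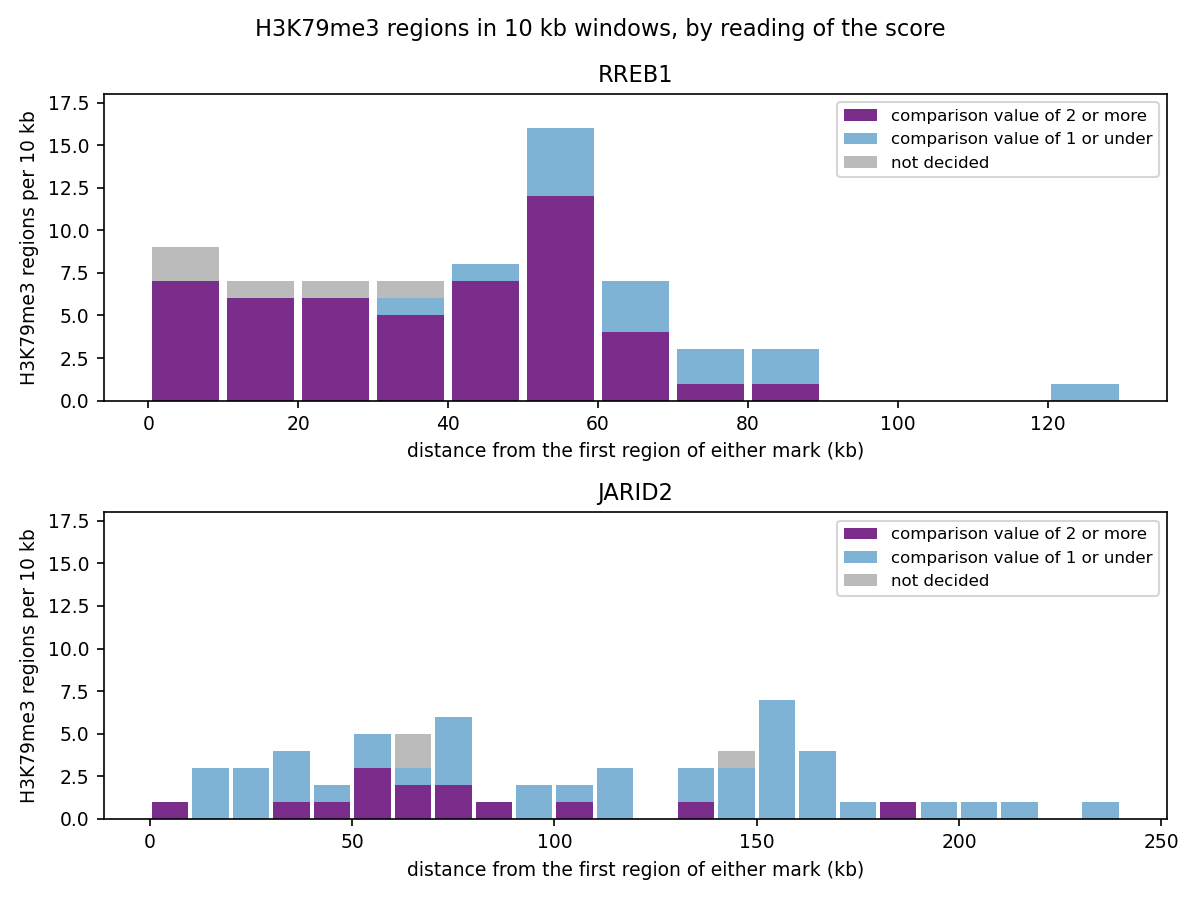
Number of H3K79me3 regions per 10 kb window (vertical axis) against distance in kb from the first region of either mark, for RREB1 (top) and JARID2 (bottom), coloured by the reading of the score. In RREB1 the higher class makes up 12 of the 16 regions of the densest window and is thinned out beyond 70 kb, while in JARID2 the lower class leads in most windows.

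H3K79me2 did not enter the choice of the genes. RREB1 had 6 H3K79me2 regions, all 6 negative, and JARID2 had 10, 8 negative and 2 positive (80.0% negative). Over the whole table, 4835 of 8746 H3K79me2 regions (55.3%) were negative. The regions of a gene are not replicates, and the difference from the table was not tested.

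In RREB1 the H3K79me2 scores began at the promoter, at 7105829 to 7105896, with -16.82 in the authors' deposited table, and inside an intron at 7111403 to 7111472 with -13.68. The middle pair had -8.33 and -13.87 in the authors' deposited table, at 7158575 to 7158672 and 7160659 to 7160790. The last pair had -10.19 at 7216785 to 7216872 and -19.59 at 7232355 to 7232424 in the authors' deposited table. The last one lay 484 bp from the isolated H3K79me3 region beyond the long gap, so both marks had a region there, and the H3K79me2 one was annotated to the shore of a CpG island. The median score size of the 6 regions was 13.8.

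In JARID2 the 8 negative H3K79me2 scores ran from -7.76 to -17.84 in the authors' deposited table, the largest at 15450533 to 15450631 and the next, -17.34, at 15424977 to 15425159. The 2 positive scores in the authors' deposited table were 9.77 at 15336222 to 15336300 and 17.50 at 15456075 to 15456231. The second of these lay between negative H3K79me2 regions with -17.84 and -14.96 in the authors' deposited table, so it was a single positive region among negative ones in the last part of the gene. The median score size of the 10 regions was 10.7. On the same kind of reading, with backgrounds fitted to the H3K79me2 scores, 5 of these 10 regions were in the higher class. Single solutions included 29 against 7 at 15304628 to 15304701. Of the 6 H3K79me2 regions of RREB1, 0 were in the higher class, 2 in the lower, 1 had solutions on both sides and 3 had none. The share of that table in the higher class was 35.8%.

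Between these genes, regions of the marks overlapped in RREB1 and not in JARID2. The RREB1 H3K79me2 regions at 7158575 and 7160659 shared 28 and 56 bp with H3K79me3 regions, all 4 with negative scores. That is 2 of the 6 H3K79me2 regions, against 1.81% in the table, and 2 of the 68 H3K79me3 regions, against 1.16%. The H3K79me3 region with the largest RREB1 score ended 4 bp from the first of these H3K79me2 regions, and both lay in the densest window. H3K79me3 regions covered 6.30% of their full stretch in RREB1, 9.14% of its dense part and 2.68% of their full stretch in JARID2. The part of this coverage in the overlap was not tested. In JARID2, 0 of 10 H3K79me2 regions and 0 of 61 H3K79me3 regions overlapped, and the nearest distance was 316 bp.

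The surroundings of the genes differed. Within 500 kb of the outermost JARID2 regions there was no other H3K79me3 region. H3K79me2 had 1 in DTNBP1, the dysbindin gene, with -12.87, and 1 outside genes with 10.19 in the authors' deposited table. Around RREB1, H3K79me3 had 7 regions outside genes on the low side, all negative, 5 of them between 6866560 and 6870352. On the high side it had 2 in SSR1, a subunit of the translocon-associated complex, with -14.63 and -8.00, and 1 in SNRNP48, a protein of the minor spliceosome, with -8.32 in the authors' deposited table. H3K79me2 near RREB1 was mixed, with 2 negative and 5 positive regions outside genes and 1 in SSR1 at -6.90 in the authors' deposited table. One of the positive regions, 10.25 in the authors' deposited table, ended 0.533 kb before the negative promoter region of RREB1.

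Genes were ranked for likeness by 4 region counts, the negative and positive regions of both marks, as summed differences of log2(count + 0.5), among 58 other genes with at least 20 H3K79me3 regions. Most like RREB1 was MEIS1 (0.69), with 55 negative H3K79me3 and 8 negative H3K79me2 regions and no positive one, followed by B4GALT5 (1.52), CDK6 (1.72), SENP6 (2.13) and CNOT6L (2.56). Most like JARID2 were SENP6 (1.05), CDK6 (1.15), FNDC3B (1.36), ANKRD11 (1.78) and MBNL1 (1.82). The measure rests on counts from 2 tables and leaves the reading of the score out. On that reading MEIS1 had 18.2% of its H3K79me3 regions in the higher class, against 72.1% for RREB1.

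JARID2 was chosen for its number of H3K79me3 regions, so its lead over other PRC2 genes follows from that choice. The other PRC2 genes had at most 5 H3K79me3 regions each, where the median over all genes with a region was 2. Of 15 PRC2 genes, 10 had an H3K79me3 region, 9 with negative regions only and 1, the methyltransferase gene EZH1, with a single positive region. Here and in the lists below, the number of genes with a region has no share of all annotated genes beside it. It therefore cannot be read as high or low. Over all genes with an H3K79me3 region, 3814 of 4045 had negative regions only, and 97.5% of all H3K79me3 regions were negative. JARID2 held 61 of the 89 regions in PRC2 genes. The core subunit SUZ12 had 5, up to -17.5, and EZH2, the catalytic subunit, had 4, up to -15.98 in the authors' deposited table. EZH1 had 12.18 in the authors' deposited table. Without JARID2 the list held 27 negative regions and 1 positive region. For H3K79me2, 9 of the 15 had a region, 20 negative and 11 positive in all, where the table has 55.3% negative. Without JARID2 the list held 12 negative and 9 positive H3K79me2 regions. EZH2 had 2 of each sign (largest -14.16) and the accessory subunit LCOR had 3 negative and 2 positive (largest -12.87). AEBP2 had 3 positive (largest 11.92 in the authors' deposited table).

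PRC1, the companion Polycomb complex that ubiquitinates H2A, had H3K79me3 regions in 6 of 20 genes, 14 negative and 1 positive, against 97.5% negative in the table. BMI1 led with -20.75 in the authors' deposited table, followed by PCGF3 and PHC3 with -12.01 each and KDM2B with -11.21. For H3K79me2, 7 of 20 had regions, 12 negative and 14 positive where the table has 55.3% negative, led by KDM2B with 21.58, the ubiquitin ligase RNF2 with 20.07, SCMH1 with 14.53 and RYBP with 11.92 in the authors' deposited table.

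Among 14 relatives of JARID2 with an ARID domain, 9 had H3K79me3 regions, all 82 negative, near the 97.5% of the table. ARID2, a subunit of the PBAF remodelling complex, had 31 regions and -23.11, as large a score as ARID1A with 10 regions, and ARID1B had -24.6 in the authors' deposited table. KDM5B, an H3K4 demethylase, had -19.37 in the authors' deposited table. For H3K79me2, 7 of 14 had regions, 21 negative and 15 positive where the table has 55.3% negative, led by ARID1B (-20.12), ARID2 (-16.22), ARID4A (-14.96) and ARID1A (12.68 in the authors' deposited table).

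The RAS and MAP kinase genes upstream of RREB1 had H3K79me3 regions in 9 of 23 members, all 73 negative, near the 97.5% of the table. The adaptor gene GRB2 had 26 regions and -25.61, NF1, a RAS inhibitor, had -19.61, and the exchange factor gene SOS1 had -15.98 in the authors' deposited table. For H3K79me2, 16 of 23 had regions, 39 negative and 10 positive, against 55.3% negative in the table, a difference that was not tested. SOS1 had 8 negative regions (largest -19.61), PTPN11 had 3 negative and 1 positive (-15.48), RASA2 had 3 negative (-15.26), and BRAF had 1 of each sign (-14.96 in the authors' deposited table). SPRED2, tied with BRAF, had 10 negative regions.

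SMAD and CtBP partners of RREB1 had H3K79me3 regions in 11 of 16 genes, all 44 negative where the table has 97.5%, led by ZEB2 (-18.76), HDAC2 (-13.78), RCOR1 (-13.73) and SMAD2 (-13.3, tied with SMAD4) in the authors' deposited table. Their H3K79me2 regions, in 9 of 16 genes, were 24 negative and 17 positive where the table has 55.3% negative, led by the corepressor CTBP2 (21.47), SMAD4 (20.12), RCOR1 (-15.48) and CTBP1 (-15.26) in the authors' deposited table. Median region numbers per gene with a region ranged from 1.5 to 6 over the lists for H3K79me3 and from 2 to 4 for H3K79me2, against 2 and 1 over all genes with a region. The share of all annotated genes that had a region was not computed. The numbers of listed genes with a region therefore have no background beside them.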

How the data were processed

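For each of H3K79me2 and H3K79me3 a single table of differential regions from ChIP-seq was used. Per the file headers, a row holds a region, a name, a signed score and gene and CpG island annotation. The score of the authors' deposited tables has no unit in its header, and 0 scores disagreed in sign with the region name. The submitters' processing notes list DESeq2, bedtools, MACS2 2.1.1 and Bowtie2, and as builds hg19, hg38 and GRCh38, without saying what each was used for. Only 14.9% of H3K79me3 and 16.1% of H3K79me2 intron regions of a single gene matched by symbol lay inside its GRCh38 bounds, so positions, given as deposited, are not on GRCh38.

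A region counted for each gene that its promoter, intron, exon or UTR annotation named. Gaps run from the end of a region to the start of the next. Overlap needed 1 bp. Exact (Clopper-Pearson) 95% intervals cover counting error only, and those of ratios take the comparison value as a second observed count. Named genes were the members, genes sharing a region with them, those around the limit of 60 regions, the 5 most alike, neighbours within 500 kb, and up to 4 per list and mark. A listed gene is left out of the text. The members and lists, the score reading and the promoter motifs were chosen with earlier results of these data known. Scripts were tested on simulated data. There the counts of the lower and higher class did not overlap, while in the deposited scores they do. The test therefore gives no error rate for the class shares reported here. Values were computed with pandas 2.3.3, scipy 1.17.1 and numpy 2.4.6 in Python 3.11.15 and drawn with matplotlib 3.10.9.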

Additional observations from a re-analysis of the deposited data

How the results depend on the processing

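Of 58 alternative values over 18 results, 49 stayed within their limits, 9 moved and 0 reversed. The sign shares, the median score sizes and the shares in the higher class of the score reading were all among the 49. Part of these outcomes was fixed in advance. Where all regions of a gene were negative, dropping or merging regions could not change the sign share. The setting of introns only kept every H3K79me3 region. Such outcomes are no evidence of stability. The higher class ranged from 67.4 to 72.1% in RREB1 and from 15.4 to 26.2% in JARID2. Counts of regions depended on how they were drawn: merging regions of 1 sign within 5 kb left 4 H3K79me3 blocks in RREB1 and 17 in JARID2. With a score size of at least 10, JARID2 kept 39 H3K79me3 and 6 H3K79me2 regions. The 2 RREB1 overlaps between marks became 0 under reciprocal overlap of 50%, 1 with score sizes of at least 10 in both marks and 10 within 1000 bp, and the 0 of JARID2 became 3 within 1000 bp. The density of RREB1 was 7.98 regions per 10 kb without its last, isolated region, against 5.53 with it. The settings of the score reading and the isolated region were chosen after seeing the data. No paired analysis was possible because each group held 1 library and the tables hold no values per library. Depth per library is unknown, and no replicate could be left out.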
